A study of Mus musculus with 6 samples.

Results

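The genes examined here encode the enzymes of glycolysis, the pentose phosphate pathway and the tricarboxylic acid (TCA) cycle, with 2 transcription factors that act on them, Hif1a and Myc. They were taken from a list of 39 names drawn up by function, with earlier results of these data known. A gene counted as measured where the array annotation gave it a probe set with exactly 1 gene symbol, and 34 of the 39 were measured, out of 22180 genes in all. Aldoa and Tkt lay on probe sets with several symbols, and Gpi1, Eno1 and G6pdx were not analysed here.

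The cells were CD4 T cells sorted from the digested lungs of wild-type mice, as CD45+ CD4+ cells without CD11b or F4/80. The HDM group came from mice sensitised and challenged with house dust mites, an allergen source, and the PBS group from mice given phosphate-buffered saline in the same scheme, each with 3 samples that the titles call biological replicates and number 1 to 3. Strain, sex, age, doses, days and the number of mice per sample are not in the labels. The p-values therefore reflect only how these 6 samples vary, and the number of arrays limits the precision. RNA was hybridised to Affymetrix mouse gene arrays, 1 per sample, and the values are log2 signals on which 1 unit is a doubling. Levels are compared between arrays for 1 gene, not between genes.

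Glycolysis splits glucose into pyruvate in the cytosol and yields ATP without oxygen, and lactate dehydrogenase can then turn pyruvate into lactate. The pentose phosphate pathway branches off to make NADPH and ribose for nucleotides, and the TCA cycle oxidises pyruvate carbon in mitochondria after pyruvate dehydrogenase has admitted it. Resting T cells rely mostly on oxidation, while activated T cells are known to raise glycolysis, with Myc and HIF-1 alpha as drivers of the enzymes' transcription.

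Markers of the labelled cell type were bright. Cd4 measured 12.57, 12.71 and 12.73 in HDM arrays and 12.60, 12.47 and 12.50 in PBS arrays, and Cd3e, a chain of the T cell receptor complex, lay between 12.72 and 13.09 on the 6 arrays. Array medians were between 6.57 and 6.64. The macrophage markers Adgre1, which encodes F4/80, and Itgam, which encodes CD11b, were dimmer, between 6.91 and 7.97 on all arrays. Markers of other lung cells were not all dim. Lyz2, a lysozyme of macrophages and other myeloid cells, lay between 10.78 and 11.40 in HDM arrays and between 10.56 and 11.03 in PBS arrays, and Scgb1a1, the secretoglobin of airway club cells, between 11.32 and 12.48 in HDM arrays and between 10.94 and 12.29 in PBS arrays. Signals of this kind have no true zero, so a weak marker cannot be read as absent, and in RNA from sorted populations fewer cells of a type and less RNA per cell cannot be told apart.

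Most of these genes did not pass the test of HDM against PBS. Of the 34 measured genes, 1 passed the test, an adjusted p below 0.05 in limma's fit across all 22180 genes, which called 3.95% of all genes. That gene was Idh1, which was higher in HDM, and 0 genes were lower, where at an unadjusted p below 0.05 there were 6 higher and 3 lower, against 8.67% and 9.17% of all genes. The differences ran from −0.75 to 0.60 log2 units, with a median of 0.12, beside −0.0063 over all genes tested. In 22 of the 34 genes, or 64.7%, the mean was higher in HDM, against 48.4% of all genes, and the size of the difference had a median of 0.19 for the members and 0.11 for all genes. The 3 HDM values lay wholly above the 3 PBS values for 10 members and wholly below for 3, against 10.8% and 11.8% of all genes. These 13 are 38.2% of the members, where 22.6% of all genes had groups apart. In 17 members the HDM array was the higher one of each same-numbered pair and in 5 the lower one, against 21.6% and 24.1% of all genes. The members' group means lay between 7.10 and 12.90, above the array medians of 6.57 to 6.64, whereas all genes tested include dim ones. The part of brightness in the comparisons with all genes was not tested.

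Arrays with the same replicate number correlated once group means were subtracted. HDM replicate 2, however, correlated more with PBS replicate 1 (0.25) than with PBS replicate 2 (0.17). The pairing comes from the data and not from the labels. A block chosen because these same values correlated can have lower SEs and p-values through that choice. A second fit took the replicate number as a block. It called 9 of the 34 genes, 5 higher and 4 lower in HDM, or 26.5%, where the same fit called 12% of all genes, 5.95% as higher and 6.01% as lower. The 5 higher genes were Idh1, Tpi1, Hk1, Pgk1 and Ldha, and the 4 lower genes were Pdk1, Ldhb, Pfkfb4 and Idh2. Without both arrays numbered 3, a setting chosen after seeing the data, limma called 3 members higher and 4 lower, where it called 11.6% of all genes, 5.64% as higher and 5.98% as lower.

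**Figure D1:**
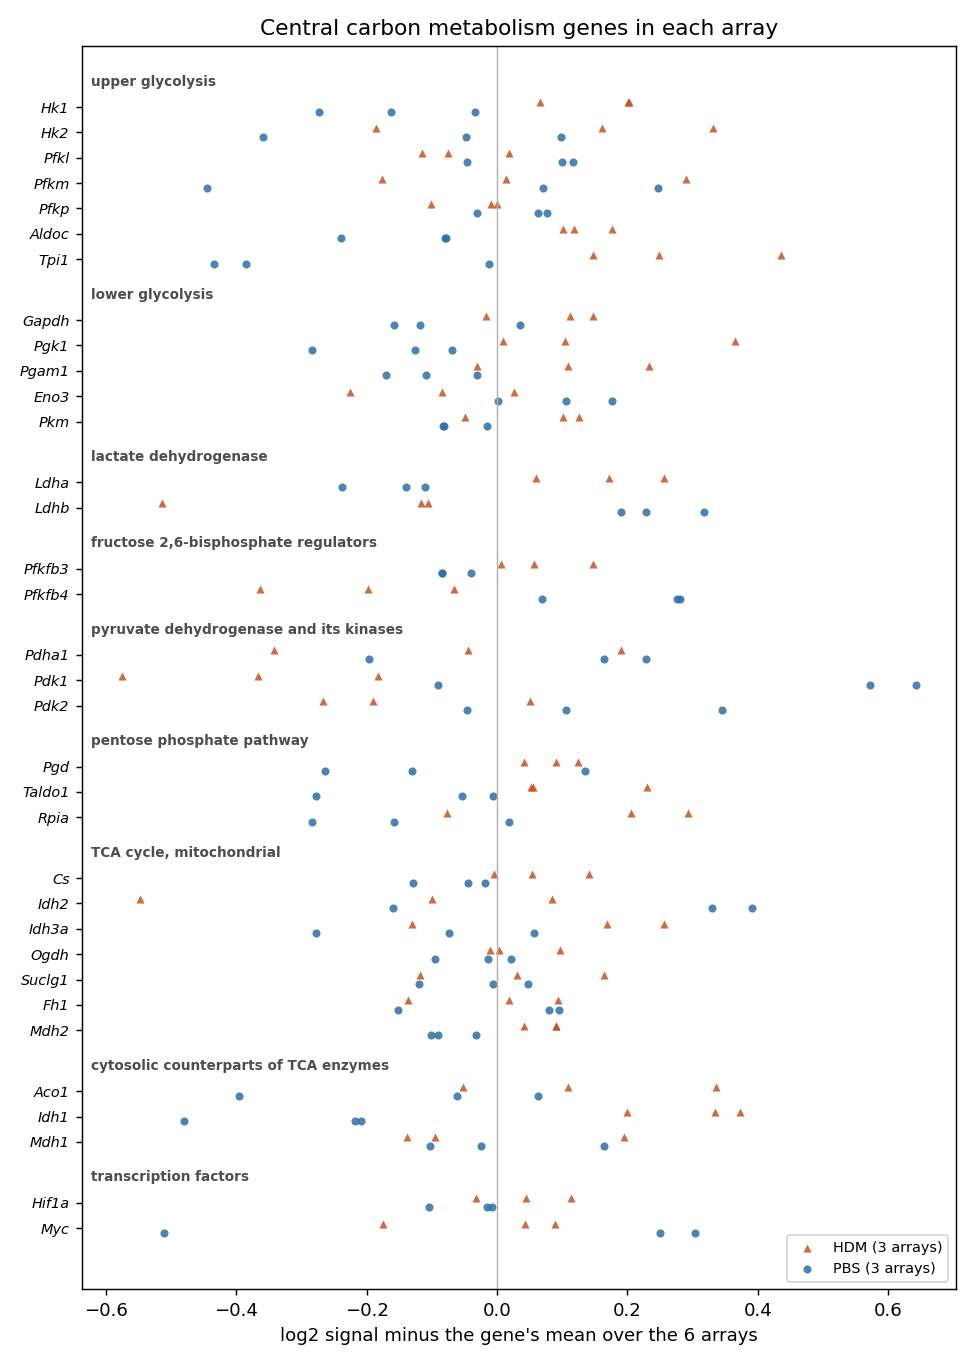
The x axis gives the log2 signal of each array minus the gene's mean over all 6 arrays, for the 34 measured genes in rows grouped by pathway step, with triangles for the 3 HDM arrays above circles for the 3 PBS arrays. HDM values lie wholly to the right of PBS values in 10 rows and wholly to the left in 3, which are Ldhb, Pfkfb4 and Pdk1.

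Idh1 encodes the cytosolic, NADP-dependent isocitrate dehydrogenase, which makes NADPH. Its signals were 8.67, 8.63 and 8.50 in HDM arrays, against 8.09, 8.08 and 7.82 in PBS arrays. Every HDM array was above every PBS array. Idh1 rose 1.52-fold (log2 difference 0.60 ± 0.11 SE, n = 3 per group, adjusted p = 0.0269, and 0.00432 with the block). It lost the call when either array numbered 1 or either numbered 2 was left out, with adjusted p between 0.0746 and 0.12 and differences between 0.57 and 0.65.

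The other cytosolic counterparts of TCA enzymes did not pass. Aco1, the cytosolic aconitase that also serves as an iron-responsive RNA-binding protein, differed by 0.26 ± 0.15 (SE), and Mdh1, the malate dehydrogenase of the malate-aspartate shuttle, by −0.03 ± 0.12. Both overlapped between the groups.

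Of the 7 mitochondrial TCA enzymes, 0 passed in limma without the block and 0 reached an unadjusted p below 0.05. Idh2, the mitochondrial NADP-dependent isocitrate dehydrogenase, measured 8.92, 9.10 and 8.47 in HDM arrays and 9.41, 9.35 and 8.86 in PBS arrays. The groups overlapped, but in each of the 3 same-numbered pairs the HDM array was the lower one, by 0.49, 0.25 and 0.39 for numbers 1, 2 and 3. Idh2 fell with the block (log2 difference −0.37, adjusted p = 0.027, and 0.391 without it). The difference was −0.19 without HDM replicate 3 and −0.55 without PBS replicate 3. For Idh3a, the catalytic subunit of the NAD-dependent enzyme, the difference was 0.20 ± 0.13 (SE). Mdh2, which makes oxaloacetate, gave 0.15 ± 0.06 and Cs, the citrate synthase at the entry of the cycle, 0.13 ± 0.08, and for both genes the HDM values were all above the PBS values. Ogdh, Suclg1 and Fh1, which encode the oxoglutarate dehydrogenase subunit, a succinate-CoA ligase subunit and fumarase, had differences between −0.015 and 0.06.

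In the upper part of glycolysis, 2 of 7 measured genes rose with the block, against 5.95% of all genes. Without it 0 passed, and 3 were higher at an unadjusted p below 0.05, against 8.67% of all genes. Tpi1, which interconverts the triose phosphates, measured 9.62, 9.72 and 9.91 in HDM arrays and 9.09, 9.04 and 9.46 in PBS arrays. The groups did not overlap, and arrays numbered 3 were the highest of both groups. The difference was 0.55 ± 0.14 SE, or 1.47-fold (adjusted p = 0.071, and 0.00527 with the block). Without PBS replicate 3 Tpi1 passed (adjusted p = 0.0272).

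Hk1, a hexokinase that commits glucose to the cell and binds mitochondria, was among the genes whose groups were apart. It measured 8.92, 8.92 and 8.78 in HDM arrays and 8.56, 8.68 and 8.44 in PBS arrays; Hk1 and Ldha were chosen for this detail after their values were seen. Its difference was 0.31 ± 0.10 SE (adjusted p = 0.148, and 0.0411 with the block). Hk2, the hexokinase known to be induced by T cell activation, differed by 0.20 ± 0.17 (adjusted p = 0.603, and 0.392 with the block), with −0.14 between the arrays numbered 2 and positive differences in the other pairs. Aldoc, an aldolase, differed by 0.26 ± 0.09 without overlap (adjusted p = 0.179, and 0.114 with the block). The 3 phosphofructokinase subunits, which form the enzyme of the committed step, had small differences of −0.11 ± 0.09 for Pfkl, 0.08 ± 0.19 for Pfkm and −0.07 ± 0.07 for Pfkp.

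In the lower part, 4 of 5 measured genes had a higher mean in HDM, against 48.4% of all genes. With the block, which called 5.95% of all genes as higher, 1 passed. That was Pgk1, phosphoglycerate kinase, the first ATP-yielding step, with 11.17, 11.43 and 11.08 in HDM arrays and 11.00, 10.94 and 10.78 in PBS arrays. The lowest HDM array was just above the highest PBS array. The difference was 0.32 ± 0.11 SE, or 1.25-fold (adjusted p = 0.171, and 0.0335 with the block). Gapdh, often used as a loading control, differed by 0.16 ± 0.07, Pgam1, phosphoglycerate mutase, by 0.21 ± 0.10, and Pkm, the pyruvate kinase, by 0.12 ± 0.07. Eno3, an enolase known mainly from muscle, differed by −0.19 ± 0.10. None of these 4 passed with the block (adjusted p of at least 0.0917). The 3 Gapdh probe sets differed by 0.16, 0.16 and 0.26, and the 2 of Pgam1 by 0.21 and 0.22.

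Markers of cycling cells and of other cell types were read beside these genes. Without the block limma called 2.39% of all genes as higher and 1.56% as lower, and with it 5.95% and 6.01%. Of all genes 48.4% had a higher mean in HDM. All 9 measured markers of proliferation had a higher mean in HDM, 0 passed limma without the block and 4 rose with it, among them Mki67 (0.64 ± 0.23 SE, adjusted p = 0.187, and 0.00412 with the block). Their summed linear signal ranged from 4345 to 6164 in HDM arrays and from 3440 to 4682 in PBS arrays. Of the 9 measured macrophage or monocyte markers 0 passed, and 1 rose with the block, with sums from 3323 to 5604 in HDM arrays and from 3156 to 4510 in PBS arrays. Endothelial markers had lower means in HDM for 5 of 5, of which Pecam1 fell without the block and 3 fell with it, Pecam1, Cdh5 and Kdr, with sums from 2605 to 3800 in HDM arrays and from 3842 to 4969 in PBS arrays. In the other lists, 1 of 5 dendritic cell markers, Itgax, 1 of 4 eosinophil markers, Ccr3, and 1 of 4 epithelial markers, Cdh1, rose. The other markers of these lists did not pass, and Sftpc, the surfactant protein of alveolar epithelium, fell with the block (−0.40 ± 0.52 SE, adjusted p = 0.777, and 0.0177 with the block). Epx, the eosinophil peroxidase, differed by −0.28 ± 0.11 with HDM wholly below PBS. Without the block 0 markers of CD4 T cells, CD8 T cells, natural killer cells, B cells or neutrophils passed. With the block 2 of the 8 measured CD4 T cell markers rose and 1 fell. The part of any of these cells in the differences was not tested.

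**Figure D2:**
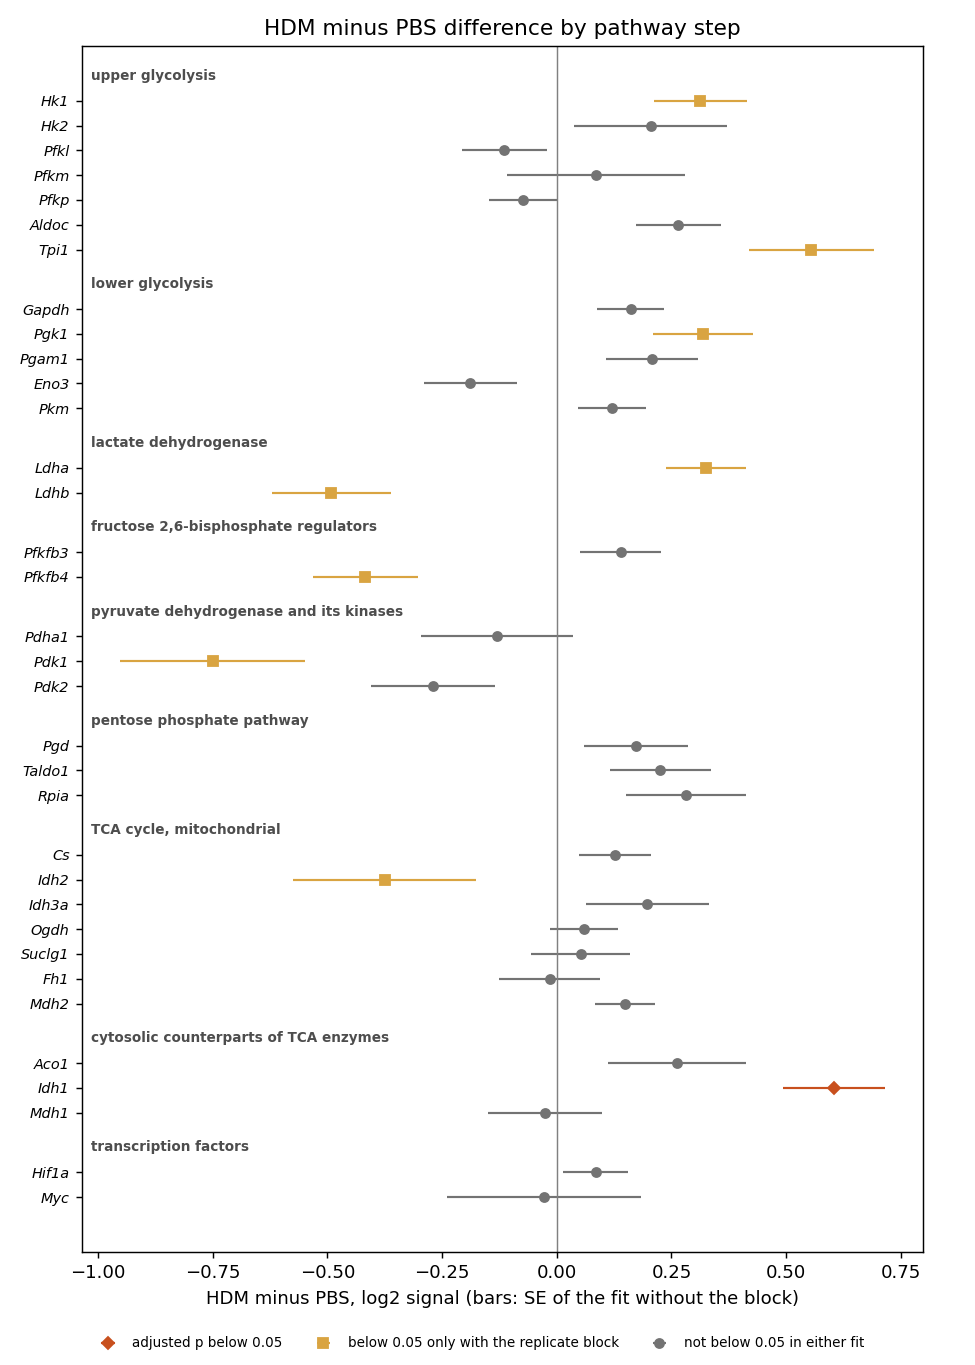
The x axis gives the HDM minus PBS difference in log2 signal for each measured gene, with bars for the SE of the fit without the block, grouped by pathway step. The diamond marks Idh1, squares mark the 8 further genes with an adjusted p below 0.05 only with the replicate block, and circles mark the genes that passed in neither fit.

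The 2 lactate dehydrogenase genes differed in opposite directions. Ldha encodes the subunit that favours lactate production, and it measured 10.43, 10.34 and 10.23 in HDM arrays and 10.03, 10.06 and 9.93 in PBS arrays. Ldhb encodes the subunit that favours the return of lactate to pyruvate, and it measured 7.23, 7.63 and 7.64 in HDM arrays and 7.93, 8.06 and 7.97 in PBS arrays. For neither gene did the groups overlap, with HDM above PBS for Ldha and below PBS for Ldhb.

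Ldha differed by 0.33 ± 0.09 SE, or 1.25-fold (adjusted p = 0.0926, and 0.021 with the block), and it passed without HDM replicate 3 (adjusted p = 0.0495). The Ldhb difference was −0.49 ± 0.13 SE, a 1.41-fold lower signal in HDM (adjusted p = 0.0869, and 0.0221 with the block). Thus Ldha rose and Ldhb fell with the block, and without it neither passed. HDM replicate 1 had the lowest Ldhb value, and without it the Ldhb difference was −0.36.

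Enzyme pairs of this kind were also compared inside each array, as the log2 ratio of the first gene to the second, for 7 pairs of related genes. This shows unequal change and is not a ratio of RNA amounts, since probe sets differ in brightness. The ratio of Ldha to Ldhb was 3.20, 2.72 and 2.59 in HDM arrays and 2.10, 2.00 and 1.96 in PBS arrays, a difference of 0.82 between the group means. For Idh1 over Idh2 the values were −0.25, −0.47 and 0.03 in HDM arrays and −1.32, −1.27 and −1.04 in PBS arrays, a difference of 0.98. Every HDM array was above every PBS array in both pairs.

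Pfkfb3 over Pfkfb4 was the other pair without overlap, with 0.98, 1.01 and 0.76 in HDM arrays and 0.53, 0.27 and 0.28 in PBS arrays. In these 3 pairs the exact two-sided permutation test gave p = 0.1, the smallest that 3 arrays against 3 allow, or 0.233 after Benjamini-Hochberg adjustment over the 7 pairs. The ratios of Hk1 to Hk2, Pdk1 to Pdk2, Pfkl to Pfkp and Mdh1 to Mdh2 overlapped between the groups, with differences of 0.11, −0.48, −0.04 and −0.17 and exact p between 0.2 and 0.7. The pairs were set up with the values of single genes known. Ldha and Ldhb, and likewise Pfkfb3 and Pfkfb4, already lay apart between the groups in opposite directions as single genes. Their ratios therefore had to lie apart and the permutation test had to give its smallest p. For these pairs the ratio restates the single-gene values and adds no support. The ratio of Idh1 to Idh2 combines Idh1, which lay apart, with Idh2, which was lower in HDM in each same-numbered pair. Since these values were known beforehand, that ratio is no independent support either.

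**Figure D3:**
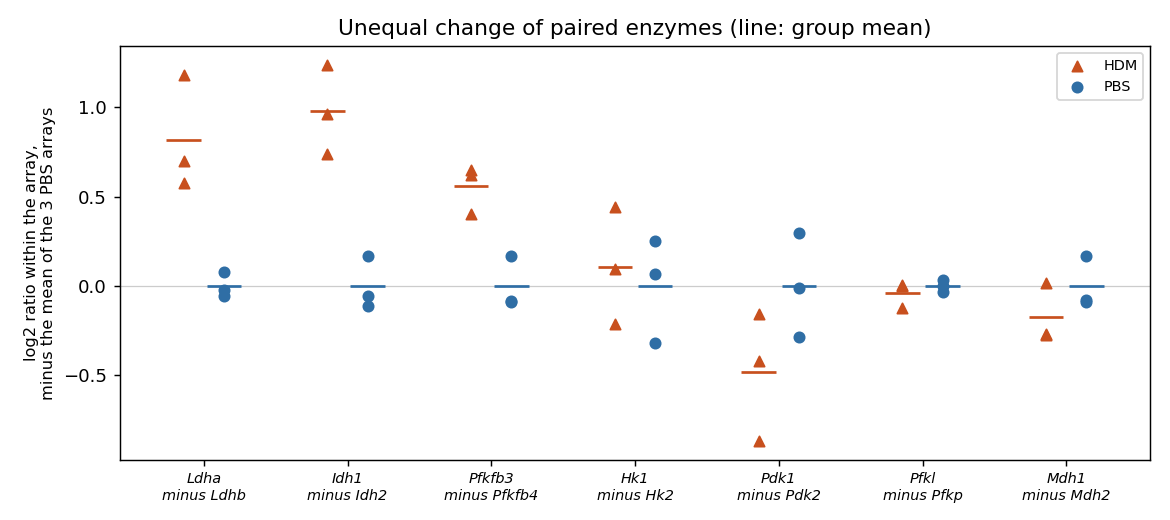
The y axis gives the log2 ratio of 2 related enzymes within each array, minus the mean of the 3 PBS arrays, for 7 pairs along the x axis, with triangles for HDM arrays left of circles for PBS arrays and lines for group means. HDM arrays lie above all PBS arrays for Ldha to Ldhb, Idh1 to Idh2 and Pfkfb3 to Pfkfb4, with mean differences of 0.82, 0.98 and 0.56.

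Pfkfb3 and Pfkfb4 encode bifunctional enzymes that set the level of fructose 2,6-bisphosphate, the activator of phosphofructokinase. Pfkfb4 measured 7.24, 7.08 and 7.38 in HDM arrays and 7.51, 7.72 and 7.72 in PBS arrays. All HDM values were below all PBS values, and the difference was −0.42 ± 0.11 SE (adjusted p = 0.0976, and 0.0415 with the block). Pfkfb3 differed by 0.14 ± 0.09 with HDM above PBS throughout (adjusted p = 0.487, and 0.342 with the block).

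At the entry of pyruvate into the mitochondrion, all 3 measured members had a lower mean in HDM, where 48.4% of all genes had a higher one. The step as a whole was not uniformly lower. Of 13 further genes of lactate and pyruvate handling, 10 had a lower mean and 3 a higher one. Among those 3 were the pyruvate carrier gene Mpc1 (0.12 ± 0.13 SE) and the kinase gene Pdk3 (0.15 ± 0.10 SE), and neither passed in either fit. Pdk1, a kinase that switches pyruvate dehydrogenase off, had the largest difference of all 34 genes. It measured 8.98, 8.80 and 8.59 in HDM arrays and 9.81, 9.74 and 9.08 in PBS arrays, without overlap. The difference was −0.75 ± 0.20 SE, a 1.68-fold lower signal in HDM (adjusted p = 0.0918, and 0.00468 with the block), so Pdk1 fell with the block. PBS replicate 3 was far below the other PBS arrays, and without that array the difference was −0.98 and passed (adjusted p = 0.0148).

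A second, dim Pdk1 probe set at a mean of 3.91 differed by −0.02. When its 2 probe sets were averaged, Pdk1 differed by −0.39 (adjusted p = 0.169). Pdk2, a second kinase of the family, differed by −0.27 ± 0.13, with −0.37, −0.53 and 0.10 between the arrays numbered 1, 2 and 3. Without both arrays numbered 3 it fell (−0.45, adjusted p = 0.0468). Pdha1, the catalytic subunit of the dehydrogenase, differed by −0.13 ± 0.17 and was lower in HDM in each pair.

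**Figure D4:**
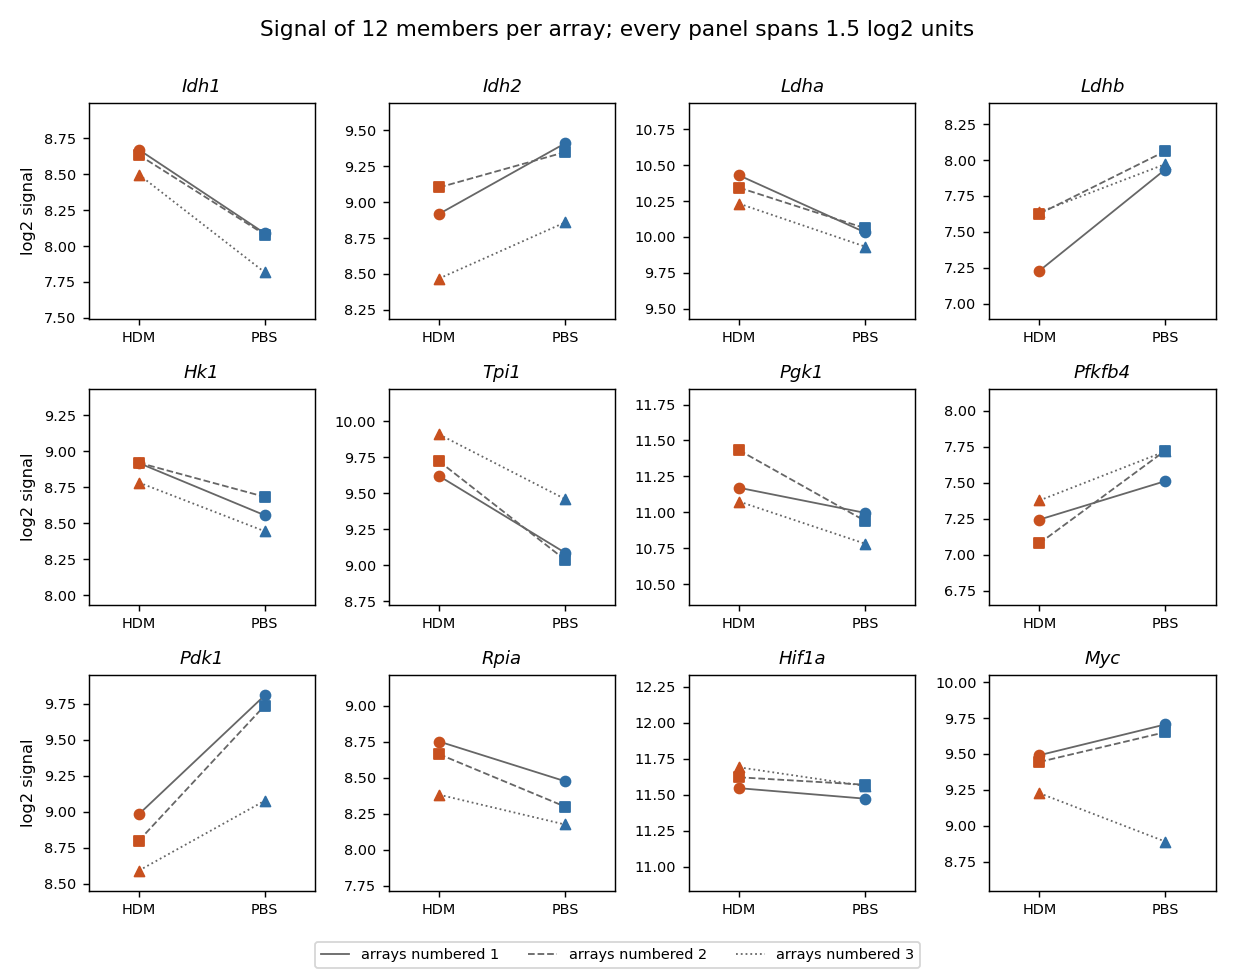
Each panel gives the log2 signal of 1 gene per array, HDM left and PBS right, with lines joining arrays of the same replicate number and the same height of scale in every panel. The lines of Idh1, Tpi1, Ldha and Pgk1 fall toward PBS for all 3 numbers, those of Idh2, Ldhb, Pfkfb4 and Pdk1 climb toward PBS, and the Myc line of the arrays numbered 3 runs against the other lines.

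The pentose phosphate pathway had 3 measured genes, all with a higher mean in HDM, against 48.4% of all genes. Of these 3, 0 passed in either fit or at an unadjusted p below 0.05. Rpia, which makes ribose 5-phosphate, measured 8.75, 8.66 and 8.38 in HDM arrays and 8.48, 8.30 and 8.18 in PBS arrays. The groups overlapped, since HDM replicate 3 was below PBS replicate 1. Its difference was 0.28 ± 0.13 SE (adjusted p = 0.313, and 0.0633 with the block). Taldo1, transaldolase, differed by 0.23 ± 0.11 without overlap, and Pgd, the second NADPH-yielding dehydrogenase, by 0.17 ± 0.11 with PBS replicate 3 above all HDM arrays.

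Neither transcription factor passed. Hif1a, the oxygen-regulated subunit of HIF-1, measured 11.54, 11.62 and 11.69 in HDM arrays and 11.47, 11.57 and 11.56 in PBS arrays. The groups overlapped, with a difference of 0.08 ± 0.07 SE (adjusted p = 0.61, and 0.384 with the block). Myc, the growth-associated factor, measured 9.49, 9.44 and 9.23 in HDM arrays and 9.71, 9.65 and 8.89 in PBS arrays. The low value of PBS replicate 3 gave Myc the widest spread of all members in PBS (SD 0.46), and the difference was −0.03 ± 0.21 SE (adjusted p = 0.969, and 0.924 with the block). HIF-1 alpha is controlled largely at the protein level, which arrays do not measure.

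The arrays numbered 3 were the lowest of their group in both HDM and PBS for 14 of the 34 members, or 41.2%, and the highest in both for 4. Over all genes these shares were 22.7% and 19.1%. Of the 9 proliferation and the 9 macrophage or monocyte markers measured, 7 in each list were highest in both arrays numbered 3. The same held for 4 of 4 B cell markers and for 3 of 5 endothelial and 3 of 5 dendritic cell markers. Of the 8 CD4 T cell markers, 2 were highest and 3 lowest in both. The part of these cells in the members' values was not tested. Idh2, Pdk1, Pdha1, Idh3a, Aco1, Rpia and Myc were among the 14, and Tpi1 among the 4. The median SD within a group was 0.13 in HDM and 0.12 in PBS for the members, and 0.13 and 0.12 over all genes.

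Promoters are shown for genes that differed in opposite directions, with Ldha and Ldhb as the related pair, Pgk1 and Idh1 higher and Pdk1 lower in HDM. HIF-1 binds sites with the core RCGTG, where R is A or G, and only the form ACGTG was searched here. MYC with its partner MAX binds the E-box CACGTG, which contains ACGTG. The sequences are the 250 bases before the first RefSeq start listed for each gene (GRCm38.p6), written 5′ to 3′ on the strand of the gene, with capitals for the core ACGTG on either strand.
Ldha, chr7:46845554-46845803, plus strand: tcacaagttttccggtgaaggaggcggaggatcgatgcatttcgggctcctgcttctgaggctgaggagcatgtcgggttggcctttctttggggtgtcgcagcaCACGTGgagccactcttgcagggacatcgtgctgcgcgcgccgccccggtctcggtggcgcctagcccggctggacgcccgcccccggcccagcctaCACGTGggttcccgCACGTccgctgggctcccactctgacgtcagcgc
Ldhb, chr6:142507958-142508207, minus strand: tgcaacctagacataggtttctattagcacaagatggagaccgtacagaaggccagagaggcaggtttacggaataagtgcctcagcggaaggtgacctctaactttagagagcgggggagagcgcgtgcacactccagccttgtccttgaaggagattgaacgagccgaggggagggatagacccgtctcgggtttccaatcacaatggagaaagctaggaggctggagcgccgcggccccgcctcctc
Pgk1, chrX:106186850-106187099, plus strand: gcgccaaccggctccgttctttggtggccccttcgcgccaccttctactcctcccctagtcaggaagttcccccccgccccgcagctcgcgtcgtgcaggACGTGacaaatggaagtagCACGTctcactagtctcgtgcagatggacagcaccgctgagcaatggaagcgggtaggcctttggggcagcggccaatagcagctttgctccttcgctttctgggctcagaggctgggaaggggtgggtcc
Idh1, chr1:65186480-65186729, minus strand: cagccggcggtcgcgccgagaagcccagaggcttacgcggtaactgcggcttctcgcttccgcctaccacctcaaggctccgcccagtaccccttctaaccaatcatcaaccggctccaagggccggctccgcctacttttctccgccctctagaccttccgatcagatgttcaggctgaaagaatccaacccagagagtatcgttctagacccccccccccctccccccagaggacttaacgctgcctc
Pdk1, chr2:71872974-71873223, plus strand: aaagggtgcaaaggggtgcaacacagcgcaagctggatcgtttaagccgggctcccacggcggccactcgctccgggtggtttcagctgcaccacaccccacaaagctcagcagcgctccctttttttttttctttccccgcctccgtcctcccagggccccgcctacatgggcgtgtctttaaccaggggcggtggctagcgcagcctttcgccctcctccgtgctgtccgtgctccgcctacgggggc

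The Ldha window held the core ACGTG at 3 places, 2 of them as the palindrome CACGTG, which reads the same on both strands. The Pgk1 window held the core at 2 places, and those of Tpi1 and Hk1, higher with the block, at 0. Pdk2, with a lower mean in HDM, held it at 1 place, within CACGTG. In the sequences shown, the windows of Ldhb, Idh1 and Pdk1 held ACGTG at 0 places. The form GCGTG was not counted, and it can be read in the windows of Ldhb and Pdk1. A further listed start of Ldha, of Idh1 and of Pdk1 had no match of ACGTG either. The table of RefSeq promoters used here matched 37 of the 39 genes, and the promoters of Idh3a and Myc were not analysed here. Of these 37, the first listed window held ACGTG in 10, or 27%, against 16.6% of all 32851 promoters cut to the same 250 bases, and CACGTG in 4, or 10.8%, against 6.02%. The shares over all promoters count every listed start, while those of the 37 genes count 1 start per gene. The matches are of letters and not measured binding sites, and the share is given with no test.

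Genes of the same pathways outside the 39 changed in 4 of 67 measured cases, 3 higher and 1 lower, where limma called 2.39% and 1.56% of all genes. With the block 5 were higher and 8 lower, where that fit called 5.95% and 6.01% of all genes. Galm, the mutarotase that readies sugars for glycolysis, measured 9.80, 9.72 and 9.35 in HDM arrays and 8.36, 8.41 and 8.11 in PBS arrays, and rose 2.52-fold (1.33 ± 0.14 SE, adjusted p = 0.00417). Fbp1, fructose-1,6-bisphosphatase, which opposes phosphofructokinase in gluconeogenesis, measured 6.74, 6.65 and 6.58 in HDM arrays and 5.93, 6.06 and 5.88 in PBS arrays, and rose 1.63-fold (0.70 ± 0.09 SE, adjusted p = 0.00773). Both kept the call when any 1 array was left out, and for both every HDM array was above every PBS array. Fbp1 was dim, with PBS values below the array medians of 6.57 to 6.64 and HDM values close to them.

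Egln3 and Hif1an, which encode oxygen-dependent hydroxylases that restrain HIF, passed in opposite directions among the 9 HIF partners measured. Egln3, itself a known HIF target, measured 10.18, 10.60 and 9.75 in HDM arrays and 8.63, 8.98 and 8.45 in PBS arrays, and rose 2.81-fold (1.49 ± 0.22 SE, adjusted p = 0.0122). Hif1an, the asparagine hydroxylase, measured 8.71, 8.56 and 8.72 in HDM arrays and 9.18, 9.18 and 9.07 in PBS arrays, with a log2 difference of −0.48 ± 0.09 SE, so that it fell (adjusted p = 0.0327). Neither gene had overlapping groups. Egln3 lost the call without HDM replicate 1 or PBS replicate 1 (adjusted p of up to 0.0615), and Hif1an without either array numbered 1 or 2 (up to 0.157). The other 7 did not pass with or without the block, among them the known HIF targets Vegfa (−0.51 ± 0.41 SE) and Bnip3 (−0.07 ± 0.09). Without both arrays numbered 3, Vegfa fell (−0.81, adjusted p = 0.0224).

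The remaining lists gave 0 calls without the block. Among 13 further genes of lactate and pyruvate handling, 10 had a lower mean in HDM, where 48.4% of all genes had a higher one. At an unadjusted p below 0.05, 6 were lower, against 9.17% of all genes, and 3 fell with the block, against 6.01%. Ldhal6b, a lactate dehydrogenase-like gene, had the largest difference there, −0.40 ± 0.16 SE (adjusted p = 0.241, and 0.0451 with the block). Of 15 further TCA-related genes, 1 rose and 3 fell with the block, against 5.95% and 6.01% of all genes. Suclg2, a subunit of succinate-CoA ligase, had the largest difference there, −0.43 ± 0.10 SE (adjusted p = 0.07, and 0.0316 with the block). Tktl1, a transketolase-like gene, rose with the block as 1 of 6 further pentose phosphate genes, against 5.95% of all genes (0.50 ± 0.12 SE, adjusted p = 0.0638, and 0.0328 with the block). Its signal was dim, with group means of 6.63 in HDM and 6.14 in PBS. None of 10 MYC network partners passed in limma with or without the block. At an unadjusted p below 0.05, 1 was higher in HDM, against 8.67% of all genes. Mxd1, a MAX partner that opposes MYC, had the largest difference, −0.29 ± 0.31 SE. Without both arrays numbered 3, Mxd1 fell (−0.42, adjusted p = 0.0154).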

How the data were processed

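The authors deposited log2 signals per probe set made with RMA (background correction, quantile normalization and summary), which the submitters' processing notes name without a version. The values were used as deposited. Of 33960 probe sets, 23521 had exactly 1 gene symbol, and the brightest by mean over the 6 arrays stood for each of 22180 genes. The test of HDM minus PBS used limma 3.58.1 under R 4.3.3 (a linear model per gene, then eBayes with an intensity trend), two-sided, with Benjamini-Hochberg adjustment over all genes and a threshold of 0.05. No dim genes were filtered. The fit without the block was also run on simulated data with independent noise in each array. Those data lack the pattern shared by same-numbered arrays, so that run does not bear on the calls that the block changes. Any 2 arrays shared at most 5 identical values.

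After subtraction of group means, arrays sharing a number correlated at 0.43, 0.17 and 0.53 for numbers 1, 2 and 3, each over the minimum of 0.1, so the numbers were taken as pairs, from the data and not from the labels. HDM replicate 2 correlated more with PBS replicate 1 (0.25) than with its own number, so number 2 was not a clear pair. Deviations from a mean of 3 arrays depend on each other, so these correlations do not settle which arrays belong together. The block was chosen on the same values that it then tested, which can lower its SEs and p-values in advance. Values with the block stand beside results whose call it changes. No batch was tested, since neither labels nor files used here name one.

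The members and lists were chosen with earlier results of these data known. Per-array values are given for members that passed, members that passed with the block and differed by at least 0.5, the largest difference in each step, Hif1a and Myc, and outside the members for genes that passed. Where none passed in a list, the gene with the largest difference is named with that difference. Further genes were named after their values were seen.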

Additional observations from a re-analysis of the deposited data

How the results depend on the processing

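The alternatives were a filter on dim genes, repeated quantile normalization, centring on array medians, no intensity trend, array weights, the mean of a gene's probe sets, the replicate block and leaving out each array. Instead of 1 higher and 0 lower members, array weights gave 3 and 3 and the block 5 and 4. Without 1 array the higher count ranged from 0 to 2 and the lower from 0 to 1, and without both arrays numbered 3 they were 3 and 4. Instead of 3 higher and 1 lower among the other pathway genes, array weights gave 5 and 5, the block 5 and 8, leaving out 1 array 2 to 5 and 0 to 3, and leaving out both arrays numbered 3 gave 6 and 8. Calls over all genes moved as well, from 3.95% without the block to 12% with it and 11.6% without both arrays numbered 3. For array weights and for leaving out 1 array the share over all genes is not given. Those counts cannot be read as particular to the members. The members' median difference of 0.12 was 0.10 with centring, 0.11 with array weights, 0.10 to 0.14 without 1 array and 0.093 without both arrays numbered 3. The cause was not tested. Genes with small differences turned sign when 1 array was left out, within ranges of −0.12 to 0.23 for Pfkm, −0.26 to 0.0070 for Pdha1, −0.018 to 0.12 for Suclg1, −0.095 to 0.049 for Fh1, −0.13 to 0.051 for Mdh1 and −0.29 to 0.12 for Myc, and Pfkm was −0.0070 without both arrays numbered 3. Without 1 array Idh2 ranged from −0.55 to −0.19, Hk2 from 0.076 to 0.35, Aco1 from 0.13 to 0.36 and Pgd from 0.084 to 0.28. Idh1 kept the call in the 7 settings that used all arrays (adjusted p of up to 0.0483). Beyond the calls named in the results the block changed no call of the members or of Galm, Fbp1, Egln3 and Hif1an. The filter, repeated quantile normalization, centring, no trend and averaged probe sets changed no call of the 34 members. The 5 members without their own probe set were not analysed here, and RMA signals hide a change in total RNA per cell.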
